A study of Mus musculus with 6 samples.

Results

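The genes examined here encode the subunits of the mitochondrial respiratory chain and ATP synthase, in libraries of female and male mice labelled as bone endothelial cells (BECs). They were chosen by name, as the protein-coding rows of the count table whose symbols mark subunits of complexes I to V (Nduf, Sdh, Uqcr, Cox4 to Cox8, Atp5 and the mRNAs of mitochondrial DNA). Of 37991 genes in the table, 100 carried such a symbol, and 97 of them had at least 10 counts summed over the 6 libraries. These 97 genes comprise 84 nuclear genes and all 13 protein-coding genes of mitochondrial DNA. By complex, the nuclear genes number 37 for complex I, 4 for complex II, 8 for complex III, 17 for complex IV and 18 for complex V, and mitochondrial DNA adds 7, 0, 1, 3 and 2 genes. Complexes follow the symbols, which place Ndufa4 in complex I although its protein is now assigned to complex IV, and which also take in the supercomplex factor Cox7a2l and the ATP synthase inhibitor Atp5if1.

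The respiratory chain passes electrons from NADH and succinate to oxygen and pumps protons across the inner mitochondrial membrane, and complex V uses the proton gradient to make ATP. Complex II is encoded by nuclear genes alone, while the other complexes combine subunits from the nucleus with subunits made inside the mitochondrion. Endothelial cells are known to rely largely on glycolysis for ATP, with the respiratory chain also serving redox balance and the synthesis of nucleotides and amino acids.

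RNA was measured in 3 female and 3 male libraries of c57/Bl6 mice aged 12 weeks, from cells of the tibia that, per the labels, were sorted on the surface protein endomucin. The study set out to learn how BECs differ between the sexes, and no transgene or treatment distinguishes the groups. The labels do not say that each library came from a separate animal, so the p-values measure the spread between these libraries. The libraries held 47678806 to 58325745 counts, and 3 counts, the smallest level taken as measurable, correspond to 0.0477 to 0.0639 CPM (edgeR's counts scaled to the library size with TMM factors).

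The markers went against the label of purified endothelial cells. Emcn, which encodes the endomucin used for the sort, had 8.68, 5.35 and 10.5 CPM in females and 4.21, 3.09 and 6.73 CPM in males, whereas the neutrophil gene S100a8 had 4334 to 12524, the haemoglobin gene Hba-a1 3243 to 7202 and the B cell gene Cd79a 756 to 969 CPM. All 14 endothelial markers listed had counts, but Sox17 stayed under 1 CPM, and together they took 0.0433% ± 0.00906 of counts in females and 0.0259% ± 0.00461 in males (SD over 3 libraries). Neutrophil markers took 2.07% to 2.23% of counts in females and 3.42% to 4.45% in males, and erythroid markers took 1.33% to 1.74% and 1.84% to 2.87%. Neutrophil and erythroid markers were higher in every male library, while macrophage markers (0.446% to 0.510% in females, 0.303% to 0.380% in males) and endothelial markers were lower. Transcripts typical of other marrow cells thus stood far above the endothelial ones, so the values that follow belong to the libraries as labelled and not to endothelial cells alone, and the part each cell type has in them was not tested. In bulk samples, fewer cells of a type and less RNA per cell cannot be told apart.

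Nuclear respiratory chain genes are classically bound by NRF1, GABP (an ETS factor), YY1 and the oestrogen-related receptors (ERR), so their promoters are shown before the expression values. RefSeq promoters of GRCm38.p6, from 250 bases before to 50 bases after the start, matched 66 of the 84 nuclear genes, with 71 promoters in all. The letters GCGCANGCG (NRF1), searched on both strands, occurred in 21 of the 71 promoters (29.6%) against 6.25% of all 32851 promoters of this length. The letters AAGATGGC (YY1) occurred in 14.1% against 2.75%, CCGGAAGT (ETS) in 7.04% against 3.89%, and TCAAGGTCA (ERR) in 2.82% against 0.423%. At least 1 of the 4 motifs was found in 33 promoters (46.5%, against 12.2% of all promoters). NRF1 letters can match on both strands at adjacent positions, and a promoter was counted once. The 120 bases before the start are given for 2 genes that carry NRF1 letters, Sdha and Atp5mc2 (male to female log2 fold changes of -0.32 and -0.22), and for 2 genes without any of the 4 motifs, Ndufv1 (-0.21) and Cox7b (0.20). None of these 4 values passed the test between the sexes, and the libraries of the sexes overlapped in all but Sdha. The 4 genes are examples picked by hand. Genes with NRF1 letters lay on both sides of 0, and a link between motif and direction was not tested. Capitals mark the NRF1 letters.
Sdha: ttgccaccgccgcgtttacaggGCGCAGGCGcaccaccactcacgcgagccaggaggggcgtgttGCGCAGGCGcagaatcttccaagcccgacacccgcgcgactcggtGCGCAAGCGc
Atp5mc2: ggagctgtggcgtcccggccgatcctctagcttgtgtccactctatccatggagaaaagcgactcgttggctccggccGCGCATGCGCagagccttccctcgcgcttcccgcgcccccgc
Ndufv1: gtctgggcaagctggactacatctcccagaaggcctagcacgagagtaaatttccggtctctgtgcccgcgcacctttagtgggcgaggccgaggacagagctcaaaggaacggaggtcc
Cox7b: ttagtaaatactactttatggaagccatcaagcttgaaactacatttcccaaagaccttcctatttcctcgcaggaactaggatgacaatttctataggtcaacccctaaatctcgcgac
These stretches lie at chr13:74350241-74350360, chr15:102671048-102671167 and chr19:4012756-4012875 on the minus strand, and at chrX:106015580-106015699 on the plus strand. Sdha holds 3 copies of the NRF1 letters in this stretch and Ndufv1 and Cox7b hold none, and a match is no evidence of binding.

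The first question was how much of the RNA the respiratory chain took up. The 13 genes of mitochondrial DNA held 7.47%, 9.47% and 9.57% of counts in female replicates 1, 2 and 3 and 7.04%, 10.3% and 8.14% in male replicates 1, 2 and 3. The 84 nuclear genes held 0.798%, 0.866% and 0.905% in females and 0.785%, 0.792% and 0.960% in males. The sexes overlapped in both shares, and the lowest mitochondrial shares were those of female replicate 1 and male replicate 1. Mitochondrial genes averaged 8.84% ± 1.18 in female and 8.51% ± 1.69 in male libraries, and nuclear genes 0.857% ± 0.0540 and 0.846% ± 0.0991 (SD, n = 3 per sex). The difference between the sexes was smaller than the spread between libraries of 1 sex for both.

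Mitochondrial counts exceeded nuclear counts 9.36-, 10.9- and 10.6-fold in females and 8.96-, 13.1- and 8.48-fold in males. In summed counts, which depend on gene number and length, the excess was widest in complex IV (23.1- to 35.3-fold). It was smallest in complex V (3.02- to 4.64-fold), with complex I at 5.82- to 9.40-fold and complex III at 7.61- to 12.2-fold. Male replicate 2 had the highest ratio of counts in each of these 4 complexes, and male replicate 3 the lowest. By medians per kilobase of canonical transcript, complex IV stayed widest (127- to 184-fold). Complex I was then smallest (44.9- to 68.6-fold), below complex V (59.5- to 88.2-fold). The 2 mitochondrial rRNAs, which are no members, equalled 6.08%, 5.69% and 6.69% of the mitochondrial mRNA counts in females and 6.45%, 6.04% and 9.44% in males, with male replicate 3 apart from the other 5 libraries.

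**Figure D1:**
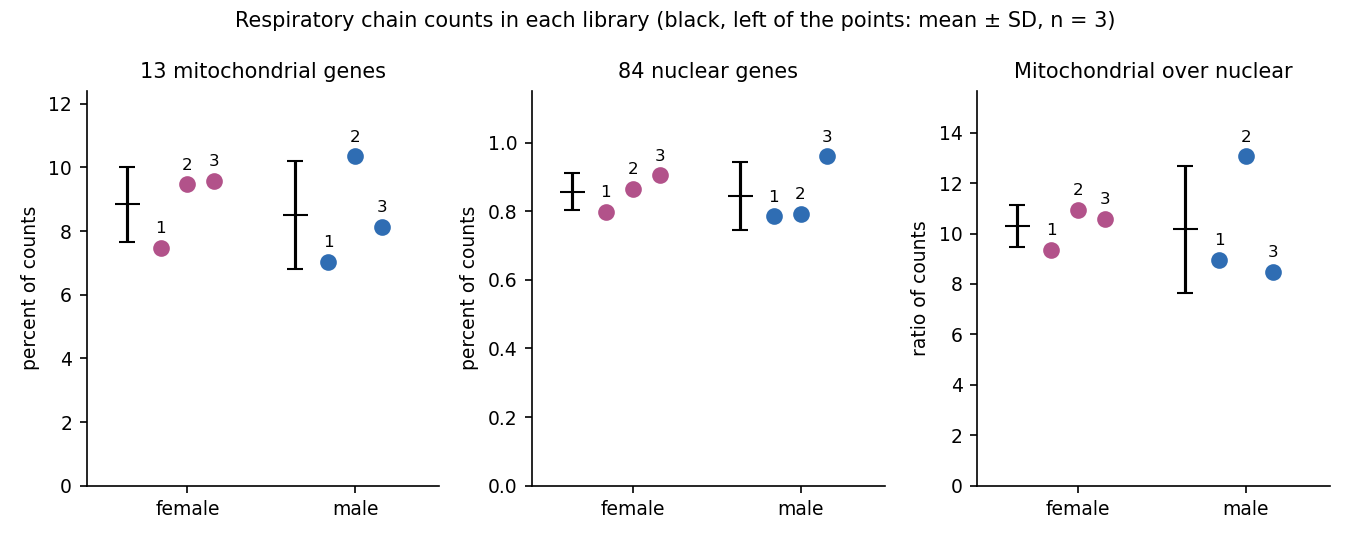
Share of all counts (percent) held by the 13 mitochondrial and the 84 nuclear respiratory chain genes, and the ratio of the former to the latter, in each library. Points are libraries numbered by replicate, with the mean ± SD of each sex in black. The sexes overlap in all 3 panels, and male replicate 2 has the highest mitochondrial share (10.3%) and ratio (13.1).

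Within mitochondrial DNA, levels are compared as CPM per kilobase, since the annotated lengths of these mRNAs are well defined. The complex IV core subunits and ATP synthase subunit a stood highest, with mt-Co2 at 18968 ± 3620, mt-Co1 at 17512 ± 3027, mt-Atp6 at 15240 ± 2953 and mt-Co3 at 14211 ± 3001 CPM per kilobase (mean ± SD, n = 6 libraries). Cytochrome b of complex III (mt-Cytb) followed at 6328 ± 1108, and mt-Nd1, in the membrane arm of complex I, at 5454 ± 979. Lowest was mt-Nd6, the 1 mRNA of the other DNA strand, at 228 ± 30.4 CPM per kilobase. The SDs of neighbours in this order overlap among mt-Co2, mt-Co1, mt-Atp6 and mt-Co3, whereas mt-Nd6 is 83.2-fold below mt-Co2. The genes mt-Atp8 (4060 ± 859) and mt-Nd4l (1215 ± 231) each overlap a neighbouring gene, so reads of the shared stretch can be counted for either gene or for none. The gene mt-Nd6 (from 13552) also overlaps mt-Nd5 (to 13565) on the other strand, and strand use in counting was not given. The part of RNA capture in these levels was not tested.

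**Figure D2:**
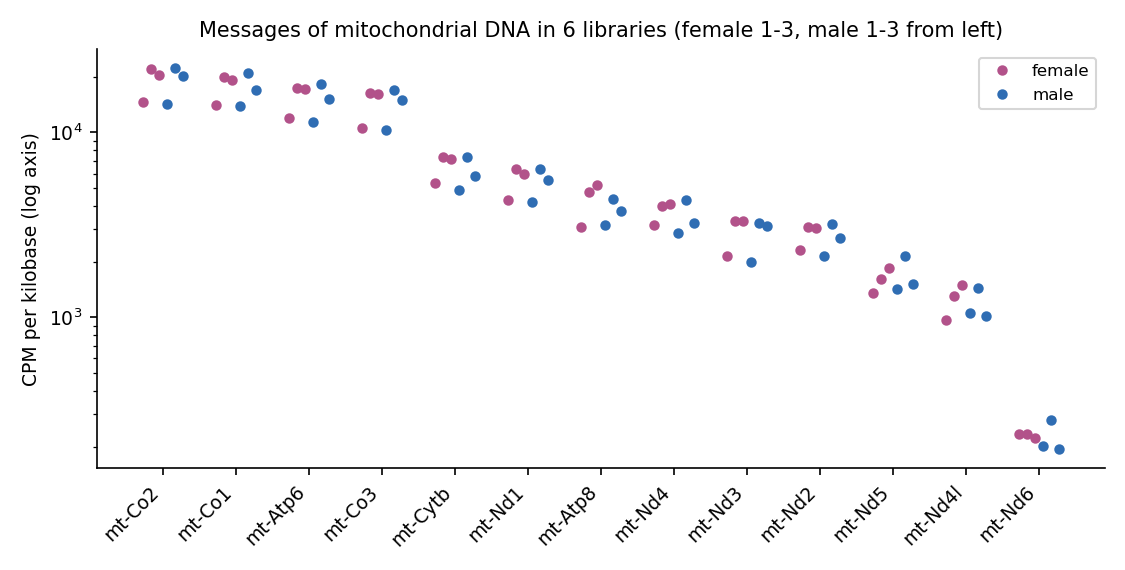
CPM per kilobase (log axis) of the 13 mRNAs of mitochondrial DNA in the 6 libraries, ordered by mean level. Each gene has 3 female and 3 male points from left to right, and female replicate 1 and male replicate 1 are at or near the lowest of their sex in every gene but mt-Nd6.

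In mt-Co1, the core subunit that holds the oxygen-binding centre of complex IV, levels were 21691, 30821 and 29810 CPM in females and 21443, 32233 and 26341 CPM in males. In mt-Cytb they were 6078, 8395 and 8263 CPM in females and 5611, 8399 and 6690 CPM in males. In mt-Nd5, a proton-pumping subunit of complex I, they were 2483, 2946 and 3383 CPM in females and 2614, 3923 and 2753 CPM in males. The sexes overlapped in all 3, as in the other 10 mitochondrial genes, and the spread within each sex was wide.

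Over the 13 genes, log2 fold changes of males over females ran from -0.21 in mt-Atp8 (SE 0.206, edgeR quasi-likelihood adjusted p = 0.79) to 0.08 in mt-Nd5 (SE 0.202, adjusted p = 0.936). The values of mt-Nd4 (-0.11), mt-Nd4l (-0.10), mt-Nd3 (-0.08), mt-Nd2 (-0.07), mt-Nd1 (-0.04) and mt-Nd6 (-0.03) in complex I, mt-Cytb (-0.14) in complex III, mt-Co1 (-0.04), mt-Co3 (-0.04) and mt-Co2 (-0.01) in complex IV and mt-Atp6 (-0.06) in complex V lay between them. Their median was -0.06, beside -0.00 for all 19480 genes tested, and 12 of the 13 values were below 0. These mRNAs are cut from common precursors, so the 13 values are not independent. In female replicate 1, 12 of the 13 were below their mean over the libraries, the exception being mt-Nd6, and in male replicate 3 they split, with 5 above. The median became positive when female replicate 2 (0.020), female replicate 3 (0.020) or male replicate 1 (0.092) was left out, and was -0.21 without female replicate 1 and -0.21 without male replicate 2.

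Of the 97 genes, 96 passed the filter on low counts and were tested. None was called at an adjusted p under 0.05 by edgeR, against a background of 0.0411% of all genes tested (8 of 19480). The Wald test of DESeq2 called 0 of the 95 members to which it gave an adjusted p, against 2.04% of all genes (350 of 17174). At an unadjusted p under 0.05, edgeR gave 1 of the 96 (1.04%) against 9.79% of all genes, and the libraries of the sexes failed to overlap in 2 of the 96 (2.08%), Sdha and Cox7a1, against 14.5% of all genes. Both shares lie below the background. The count at an unadjusted p under 0.05 rested on single libraries, with 8 members without male replicate 1, 6 without male replicate 3, 2 without female replicate 1 and 0 without female replicate 2 or male replicate 2.

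The size of a difference that these data still allow can be read from the 95% intervals. For 56 of 83 nuclear genes the whole interval of the log2 fold change lay within ± 0.5, and for 81 of 83 it lay within ± 1. Among mitochondrial genes 1 of 13 lay within ± 0.5 and 13 of 13 within ± 1. Over all genes tested the shares were 31.1% and 67.4%. Among mitochondrial mRNAs the precision differed by gene, from an interval of -0.36 to 0.30 in mt-Nd6 to 1 of -0.58 to 0.51 in mt-Co3.

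**Figure D3:**
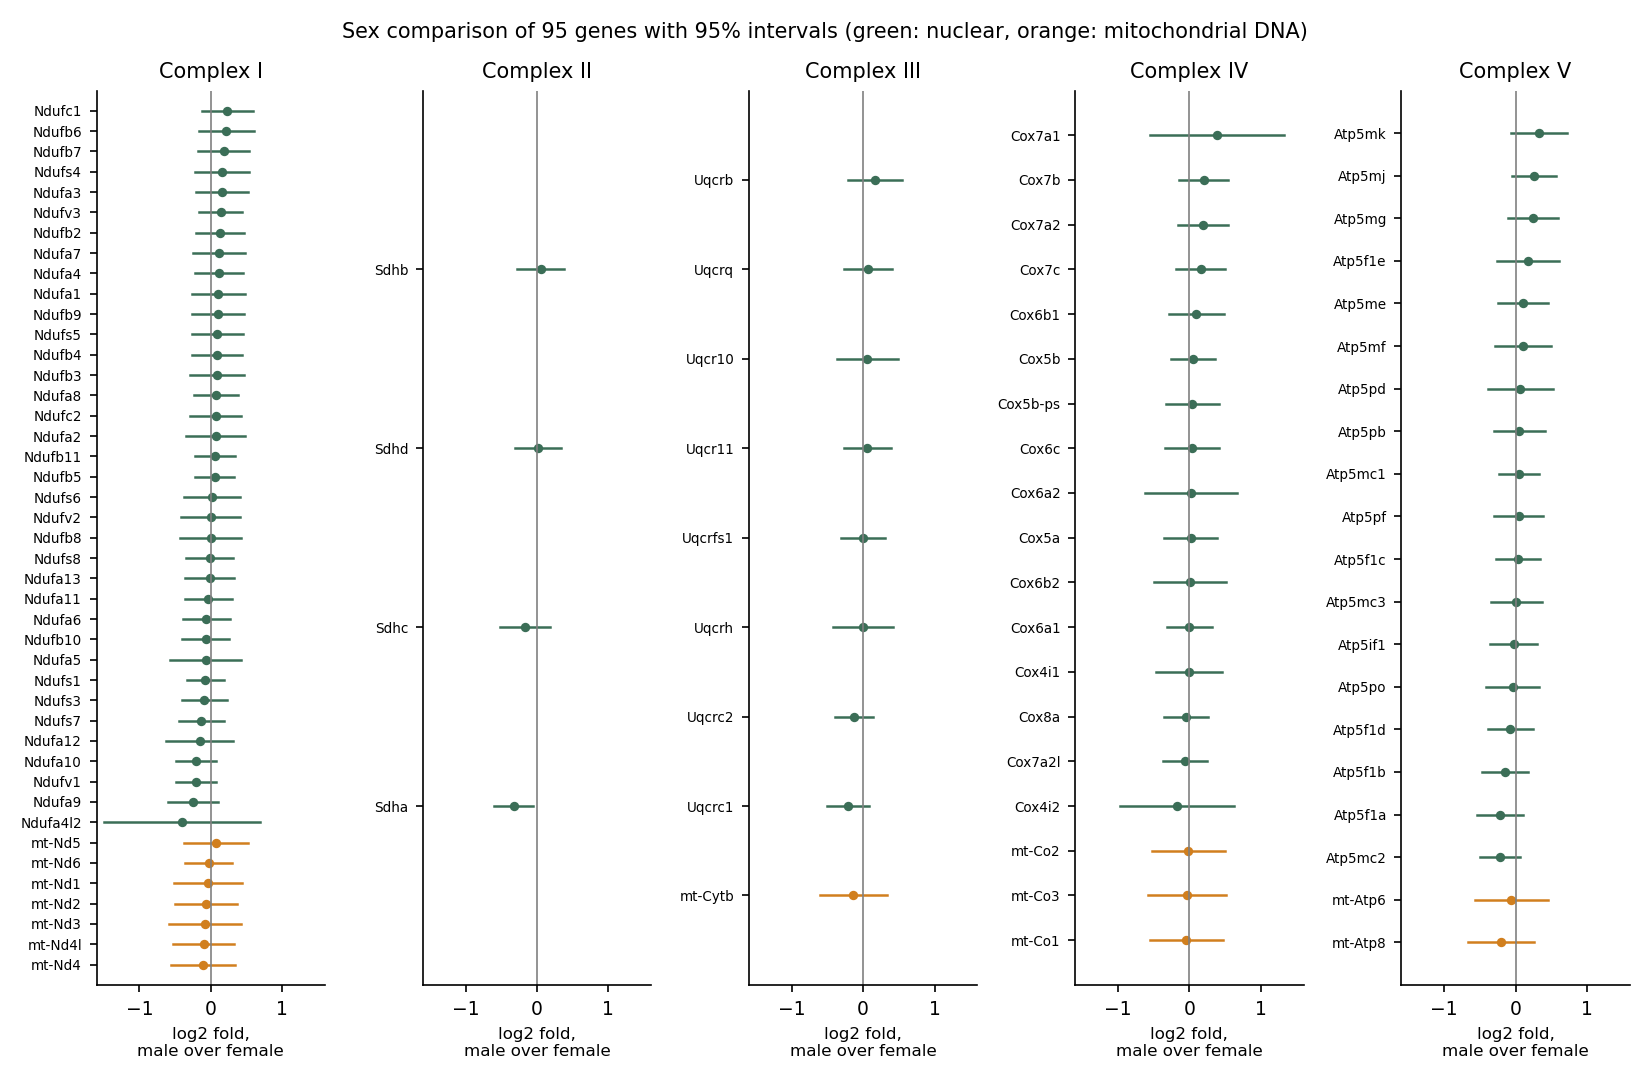
Log2 fold change of males over females (x axis) with its 95% interval for 95 of the 96 genes tested, by complex, in green for nuclear genes and orange for genes of mitochondrial DNA. The interval of Sdha, from -0.60 to -0.05, is the only 1 that leaves out 0, and it does not account for the number of genes tested.

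Complex II, succinate dehydrogenase, also belongs to the citric acid cycle. Its catalytic flavoprotein Sdha (chr13:74469359-74498436, GRCm39, minus strand) had 198, 225 and 219 CPM in females and 176, 153 and 185 CPM in males. Every male library lay below every female library. The log2 fold change was -0.32 (SE 0.123, unadjusted p = 0.0255), and with an adjusted p of 0.422 in edgeR it did not pass the test. In the membrane anchor subunit Sdhc the sexes overlapped (log2 fold change -0.17, adjusted p = 0.771, edgeR). The iron-sulphur subunit Sdhb (0.06) and the anchor subunit Sdhd (0.02) had values near 0, so the 4 subunits of the complex did not share a direction.

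In complex I, the 36 nuclear genes other than Ndufa4l2 had log2 fold changes from -0.25 to 0.23. Ndufa4l2, at 0.954, 0.435 and 0.533 CPM in females and 0.588, 0.406 and 0.464 CPM in males, had the lowest value of all members, -0.40 with an SE of 0.495 (adjusted p = 0.831, edgeR), which was 0.018 without female replicate 1. The NADH-binding subunit Ndufv1 had 65.3, 78.6 and 75.8 CPM in females and 68.4, 55.9 and 66.2 CPM in males (log2 fold change -0.21, SE 0.125, adjusted p = 0.629, edgeR). Ndufa10, an accessory subunit of the membrane arm, had 50.1, 60.3 and 58.9 CPM in females and 46.5, 45.6 and 54.8 CPM in males (-0.20, SE 0.125, adjusted p = 0.633). At the other end, the small membrane subunit Ndufc1 had 26.4, 29.0 and 28.5 CPM in females and 25.8, 32.6 and 40.4 CPM in males (0.23, SE 0.160, adjusted p = 0.678). In each of the 3 the sexes overlapped, and in Ndufc1 the highest value was that of male replicate 3, without which the log2 fold change was 0.060. Over the 37 nuclear genes of complex I, 20 values were above 0 and 17 below, with a median of 0.05.

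In complex III, the core subunit Uqcrc1 had 127, 157 and 153 CPM in females and 121, 114 and 141 CPM in males (log2 fold change -0.21, SE 0.131, adjusted p = 0.63, edgeR). The other core subunit, Uqcrc2, had a value of -0.13. The Rieske iron-sulphur protein Uqcrfs1 and the hinge protein Uqcrh were at -0.00, and the small subunits Uqcr10 (0.06), Uqcr11 (0.06), Uqcrq (0.07) and Uqcrb (0.17) were above 0. The core proteins were thus the lowest of the 8 and small subunits the highest, and none passed the test.

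In complex IV, Cox7b, an X-linked subunit, had 83.6, 85.0 and 95.4 CPM in females and 78.8, 106 and 119 CPM in males (log2 fold change 0.20, SE 0.153, adjusted p = 0.715, edgeR). Cox4i1, the regulatory subunit whose level per kilobase of canonical transcript was the highest of the nuclear genes, had 361, 489 and 498 CPM in females and 365, 378 and 599 CPM in males. The sexes overlapped in both. Without male replicate 3 the log2 fold change of Cox7b was 0.066. The log2 fold change of Cox4i1 was -0.0065, and its sign turned with the scaling. Over the 16 nuclear genes tested, 12 values were above 0 and 4 below, with a median of 0.03.

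Complex V held the members with the lowest p above 0. Atp5mk, a small membrane subunit also known as DAPIT, had 60.6, 59.5 and 76.0 CPM in females and 60.4, 87.3 and 98.3 CPM in males (log2 fold change 0.33, SE 0.179, adjusted p = 0.594, edgeR). Atp5mj, another small membrane subunit, had 53.4, 56.7 and 60.2 CPM in females and 58.0, 64.8 and 80.9 CPM in males (0.26, SE 0.137, adjusted p = 0.578). Atp5mg, subunit g, had 122, 144 and 144 CPM in females and 130, 159 and 196 CPM in males (0.24, SE 0.157, adjusted p = 0.656). In all 3 the sexes overlapped, and male replicate 3 was the highest library. Without it the log2 fold changes were 0.17 in Atp5mk, 0.11 in Atp5mj and 0.078 in Atp5mg. Atp5mc2, 1 of the 3 genes for the proton-conducting c subunit, had 94.4, 119 and 108 CPM in females and 85.0, 88.9 and 101 CPM in males (-0.22, SE 0.126, adjusted p = 0.602, and -0.14 without female replicate 2), whereas its paralogues Atp5mc1 (0.05) and Atp5mc3 (0.01) were near 0. The catalytic β subunit Atp5f1b (-0.15) and the α subunit Atp5f1a (-0.22) lay below 0, and over the 18 nuclear genes 12 values were above 0, with a median of 0.05.

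Taking the nuclear genes together, the median log2 fold change was 0.04 over the 83 tested, with 50 values above 0 and 33 below. It stayed between 0.021 and 0.047 in the 9 alternatives of scaling, filter, test and block, but became -0.11 without male replicate 3, -0.047 without female replicate 1 and 0.13 without male replicate 1. The median nuclear gene of a library, as its deviation from the mean over the 6 libraries on the log2 scale, varied within a sex with an SD of 0.219, and the median mitochondrial gene with an SD of 0.304. For single genes the median SD within a sex was 0.228 for nuclear and 0.300 for mitochondrial genes, against 0.252 for all genes tested and 0.212 for the protein-coding genes among them.

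The libraries differed from each other in a way that most subunits shared. On the log2 CPM scale, the median nuclear gene deviated from its mean over the 6 libraries by -0.21, 0.09 and 0.10 in female replicates 1, 2 and 3 and by -0.18, -0.06 and 0.31 in male replicates 1, 2 and 3. In male replicate 3, 77 of 83 nuclear genes were above their mean, and in female replicate 1 only 3 were. The median mitochondrial gene deviated by -0.31, 0.22 and 0.20 in females and -0.35, 0.27 and -0.02 in males. Female replicate 1 and male replicate 1 were therefore low for both genomes. By these medians, male replicate 2 was high for mitochondrial mRNAs alone and male replicate 3 for nuclear genes alone. In male replicate 3 the mitochondrial genes of complex IV nevertheless stood at 0.10, and the 2 mitochondrial rRNAs at 0.53. Complexes I, III, IV and V gave nearly the same course for their nuclear genes (0.34, 0.32, 0.34 and 0.30 in male replicate 3), while complex II reached 0.21 there. The median of all genes tested deviated by 0.00 to 0.02 in every library, a value that TMM scaling holds near 0. The 677 protein-coding genes with a coding sequence under 400 nucleotides had medians of -0.14, 0.02 and 0.04 in females. In males their medians were -0.14, -0.01 and 0.23. Short genes in general thus followed much of this course, which is not particular to the respiratory chain. Skeletal muscle markers took 0.00354% to 0.00638% of counts and proliferation markers 0.0374% to 0.0605%, and their part in this course was not tested.

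**Figure D4:**
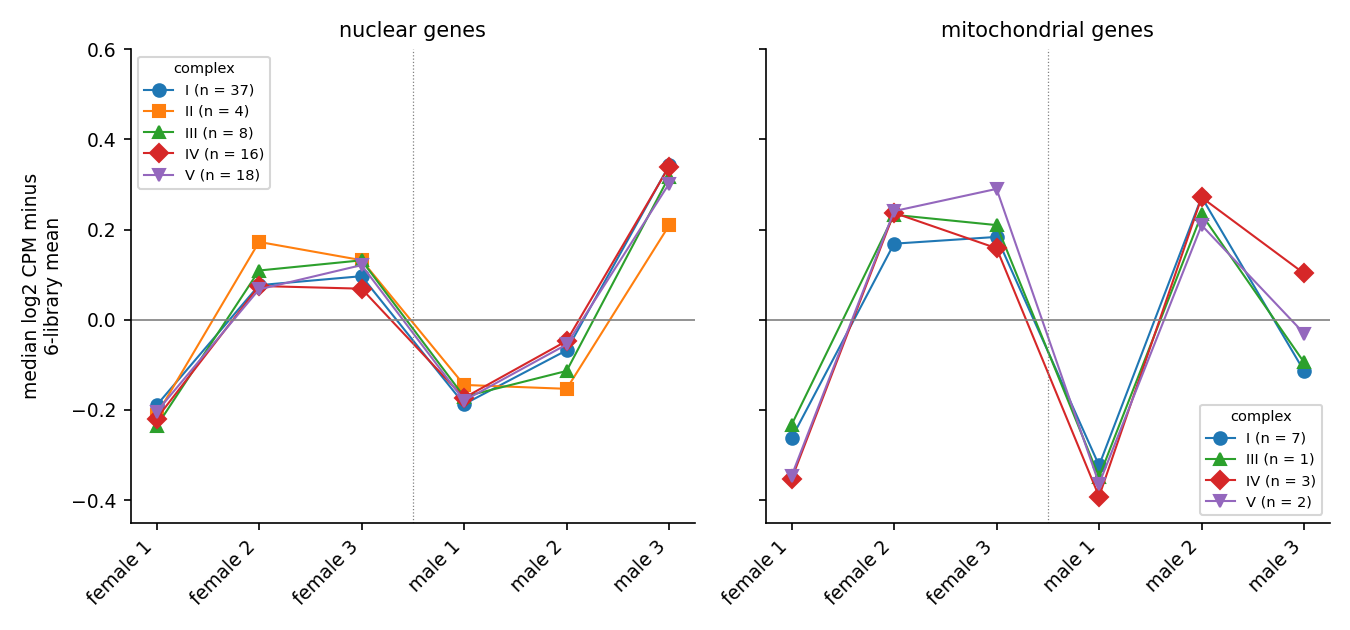
Median deviation of log2 CPM from the mean over 6 libraries (y axis) in each library (x axis), for nuclear genes on the left and genes of mitochondrial DNA on the right, with 1 line per complex. The lines of the complexes run close together, with nuclear genes highest in male replicate 3 and mitochondrial genes lowest in female replicate 1 and male replicate 1.

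Within the nuclear genes, the sex difference was ordered by the length of the coding sequence. The pattern was noticed after the values were seen, and male replicate 1 taken alone went the other way (values below). Of the 38 genes with a coding sequence under 400 nucleotides, 34 had a value above 0 and the median was 0.09. The 33 genes from 400 to under 1000 nucleotides had a median of -0.0029, with 15 above 0 and 18 below. Of the 12 genes of 1000 nucleotides or more, 11 had a value below 0 and the median was -0.18. Among those 11 were the complex I subunits Ndufs1, Ndufs3, Ndufv1, Ndufa9 and Ndufa10, the complex II subunit Sdha, the core proteins Uqcrc1 and Uqcrc2, and the α and β subunits Atp5f1a and Atp5f1b. The exception was Ndufv3 (0.14). Catalytic and core subunits are among the long genes, but so are the accessory subunits Ndufa9, Ndufa10 and Ndufv3, and the core subunits Ndufs7, Ndufs8, Ndufv2 and Uqcrfs1 fall in the middle class.

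Across the 83 nuclear genes, Spearman's rho of the log2 fold change with coding length was -0.61, and across 14333 protein-coding genes it was -0.06. Short genes at large lay on the same side, with 418 of the 677 protein-coding genes under 400 nucleotides above 0 and a median of 0.06, against medians of -0.03 in both longer classes. These are descriptions across genes of the same 6 libraries, which are not independent replicates. With the canonical transcript length in place of the coding length, rho was -0.29 for the nuclear genes. Over all protein-coding genes rho ranged from -0.18 without male replicate 1 to 0.085 without male replicate 3, and was 0.043 without female replicate 1. For single libraries, the deviation of log2 CPM was set against coding length. Over protein-coding genes rho was 0.30, -0.12 and -0.06 in females and 0.28, 0.01 and -0.38 in males. Single libraries thus differed by length far beyond the nuclear members. Over the nuclear members rho was 0.40, 0.46 and 0.45 in females and 0.22, -0.42 and -0.52 in males. Male replicate 1 thus lay on the side of the females. For the nuclear genes, leaving out each library in turn kept rho between -0.62 and -0.46, but the short genes turned with male replicate 3: without it, 11 of the 38 were above 0 and their median was -0.085. Without female replicate 1, 22 of the 38 were above 0 and the median was 0.011. In the middle class, 1 of 33 was above 0 without male replicate 3 and 27 without female replicate 2. Under the other settings 14 to 19 of them were above 0. The long genes kept 10 or 11 of 12 below 0 whichever library was left out. In male replicate 3 itself the deviation of log2 CPM was 0.37 for the median short gene, 0.28 for the middle class and 0.07 for long genes, and over protein-coding genes in general the same classes gave 0.23, 0.09 and -0.07.

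**Figure D5:**
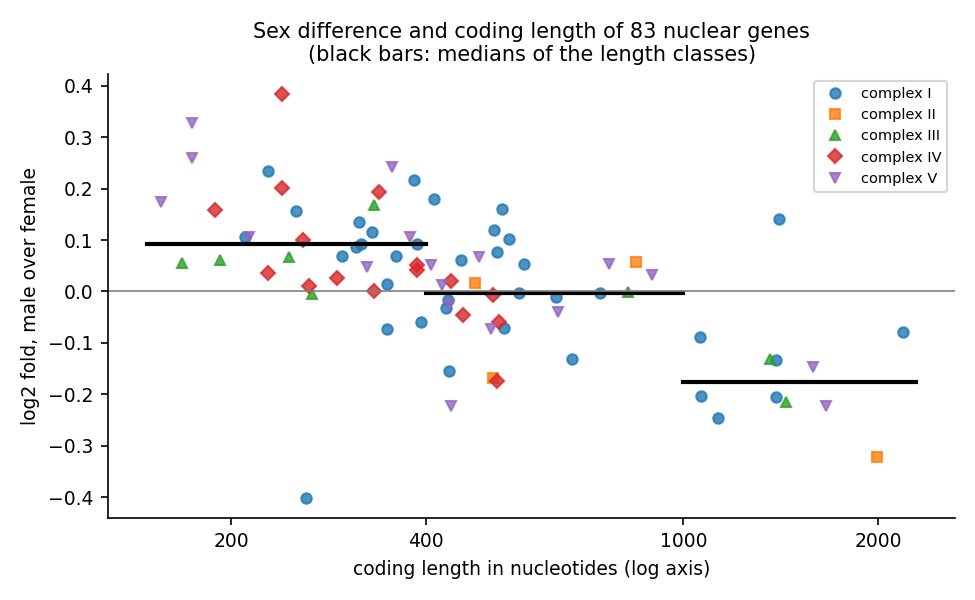
Log2 fold change of males over females (y axis) against coding length in nucleotides (log axis) for the 83 nuclear genes tested, with a symbol for each complex and black bars at the medians of the 3 length classes (0.09, -0.0029 and -0.18). Of the 12 long coding sequences, 11 lie below 0, and of the 38 short ones 34 lie above.

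Several subunits of complexes I and IV exist in tissue-specific forms, and these were compared with their ubiquitous partners per kilobase of coding sequence. Cox4i2, the form known from lung and hypoxic cells, reached 0.541% to 1.02% of Cox4i1, and Cox6b2, the testis form, 1.92% to 3.35% of Cox6b1. The heart and muscle forms Cox6a2 and Cox7a1 reached 1.45% to 2.85% of Cox6a1 and 1.03% to 1.26% of Cox7a2. Ndufa4l2, a hypoxia-induced relative of Ndufa4, reached 0.302% to 0.829%. The ubiquitous forms therefore made up nearly all of these transcripts in both sexes. Of the 12 skeletal muscle markers listed, Myh1, Myh4, Mb and Ckmt2 stayed under 1 CPM in every library, and the other 8 passed 1 CPM in at least 1 library. The highest was Acta1, skeletal muscle actin, at 20.5 to 46.1 CPM, followed by Tnni2 (3.82 to 6.16), Mylpf (3.20 to 4.52) and Tnnt3 (1.59 to 2.21). Of the 4 brown fat markers, Ucp1 and Cidea had 0 counts and Elovl3 stayed under 1 CPM, while Dio2 lay between 0.885 and 1.79 CPM. The part of such cells in the isoform ratios was not tested.

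The ratio of Cox7a1 to Cox7a2 was 1.03%, 1.06% and 1.03% in females and 1.26%, 1.18% and 1.14% in males, without overlap. Its log2 value was 0.20 higher in males, with p = 0.1 in an exact two-sided permutation test, the smallest that 3 against 3 can give, and 0.5 when adjusted over the 5 pairs tested. Cox7a1 itself had 0.525, 0.605 and 0.618 CPM in females and 0.626, 0.771 and 0.885 CPM in males, a log2 fold change of 0.38 with a wide SE of 0.422 (adjusted p = 0.808, edgeR). The other 4 pairs overlapped between the sexes (exact permutation p from 0.5 to 1). Cox8b, the muscle and brown fat form of Cox8a, lay exactly at the minimum of 10 summed counts, with 0, 4 and 1 counts in females and 0, 0 and 5 in males, and was neither tested nor given a ratio. Just outside, Cox7b2, Cox8c and Ndufb11b had 0 counts in every library.

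Between nuclear genes, levels depend on which transcript length is used. The median mitochondrial gene lay 45.5- to 70.0-fold above the median nuclear gene per kilobase of canonical transcript, 151- to 224-fold per kilobase of all annotated exons and 16.7- to 25.9-fold per kilobase of coding sequence, over the 6 libraries. All 3 measures put every library on the same side. Per kilobase of canonical transcript the highest nuclear genes were Ndufa4 (292 ± 43.3) among the genes placed in complex I by symbol, Sdhd (73.4 ± 9.21) in complex II, Uqcr10 (125 ± 25.4) in complex III, Cox4i1 (573 ± 123) in complex IV and Atp5f1e, the ε subunit (485 ± 108), in complex V, in CPM per kilobase with SD over 6 libraries. Per kilobase of all exons, Ndufa2, Uqcrh, Cox6a1 and Atp5f1b took the first place in complexes I, III, IV and V. The lowest by canonical transcript were Ndufa4l2 (0.583), Sdhb (23.5), Uqcr11 (20.7), Cox8b (0.0157) and Atp5mj (21.7), and the annotated transcripts of Sdhb (4030 nucleotides), Uqcr11 (2746) and Atp5mj (2877) are far longer than their coding sequences (846, 168 and 174). No order among nuclear genes is drawn from these values.

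Some members share sequence with copies elsewhere in the genome. A search by symbol alone found rows for 17 pseudogenes or near copies, and Ndufb4c held 43.4% to 53.2% of the counts of Ndufb4. Copies under other names, and nuclear copies of mitochondrial DNA, were not searched. Cox5b-ps, which the annotation calls protein-coding and which is therefore among the 97, held 14.1% to 16.9% of the counts of Cox5b. The most abundant copies of Ndufs5, Atp5mg, Ndufa12, Atp5pb and Cox7c held between 10.5% and 21.9% of their parents. The other 10 rows, copies of Atp5mg, Ndufs6, Atp5me, Ndufa11, Cox6c and Uqcrh, held at most 4.35% each. The division of reads between all these genes and their copies is uncertain.

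The other genes of the pathway were read from lists of assembly factors, electron carriers, regulators and supporting enzymes, 101 of which were tested and none of which was called (0.0411% of all genes). At an unadjusted p under 0.05 there were 2 of the 101, a smaller share than the 9.79% of all genes, Suclg2 of the TCA cycle (-0.35) and Coq4 of coenzyme Q synthesis (0.41). Cytochrome c itself, Cycs, had 73.5, 87.2 and 92.0 CPM in females and 72.9, 91.1 and 101 CPM in males, and Cyc1, the cytochrome c1 subunit that the naming rule leaves out of complex III, had 62.1, 71.0 and 77.3 and 61.7, 57.7 and 69.8 CPM. Ndufab1, the acyl carrier subunit of complex I that the rule also omits, had 46.3, 49.1 and 45.9 CPM in females and 41.6, 44.9 and 57.6 CPM in males. All 3 overlapped between the sexes, with log2 fold changes of 0.07, -0.15 and 0.03.

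Assembly factors gave medians of -0.04 for complex I (6 of 16 above 0), 0.04 for complex II (3 of 4), 0.03 for complex IV (14 of 20) and -0.04 for complex V (1 of 3), and -0.01 for complex III with the electron carriers (4 of 8). Genes for the upkeep and transcription of mitochondrial DNA, such as Tfam, Polrmt and Polg, had a median of -0.05 with 4 of 12 above 0. The regulators Ppargc1a, Ppargc1b, Pprc1, Nrf1, Gabpa, Gabpb1, Esrra and Yy1 had a median of 0.08 with 6 of 8 above 0. Genes of coenzyme Q synthesis had a median of -0.01, with 5 of 10 above 0. In the TCA cycle, 11 of 13 values were below 0 with a median of -0.13, and the summed share was 0.109%, 0.108% and 0.111% of counts in females and 0.106%, 0.0939% and 0.0971% in males, without overlap. The carriers of ATP, phosphate and metabolites and Ucp2 were below 0 in 7 of 7, with a median of -0.11. These lists lie beside a median of -0.00 for all genes, and no member of the TCA cycle or the carriers passed the test.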

How the data were processed

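RNA of 3 female and 3 male libraries labelled as BECs was analysed, and for each gene and library the authors deposited raw counts of reads, neither normalized nor pooled. The labels name TopHat2 2.0.11, featureCounts and the build NCBIM37 (mm9), a directional kit for polyadenylated RNA and paired reads of 40 nucleotides, whereas the paper names STAR, GRCm39, a total RNA kit and reads of 100 nucleotides. The labels also give tibia and strain c57/Bl6, whereas the paper's methods isolate cells from tibiae and femurs and name the strain C57BL/6J. Of 37991 identifiers, 6918 were not in GENCODE M39, and 47216 M39 genes have identifiers above the highest of the table, as in an older annotation. A polyadenylated or total RNA library changes what share mitochondrial RNA takes. Strand use in counting was not given in the sources used here. Symbols, positions and lengths came from GENCODE M39 on GRCm39.

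Males were compared with females in edgeR 4.0.16 (R 4.3.3) with TMM scaling, filterByExpr by sex, the robust quasi-likelihood test and adjustment by Benjamini-Hochberg over 19480 genes, with edgeR's adjusted p printed throughout. SE was taken from the fold change and its F statistic. Log2 CPM used a prior count of 2. DESeq2 1.42.0 was an alternative, as were other scalings, filters, a replicate block and each library left out. Ratios of isoforms were tested by exact permutation. The fitting code was tested on simulated data before use. Intervals and the floor of 3 counts cover counting error or the spread between libraries only.

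The members and all lists were chosen with earlier results of these data known. Named by library were genes of mitochondrial DNA, the 5 nuclear genes with the lowest p in each direction, the highest and lowest per length in each complex, isoform pairs, genes at the count minimum, and Cyc1, Cycs and Ndufab1. The genes named for coding length were chosen after their values were seen. 1 gene is counted in the summaries and is not reported here by name.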

Additional observations from a re-analysis of the deposited data

How the results depend on the processing

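No respiratory chain gene was called under any of the 15 alternative fits or at an adjusted p under 0.01, although the fits called between 5 and 428 genes in all. The lowest adjusted p of a member ranged from 0.223 with the replicate block to 1.00 without male replicate 2. The main test was planned without covariates, so the replicate numbers of the labels were not taken as pairs. Deviations of same-numbered females and males correlated at 0.194, 0.0403 and 0.298, all above 0, and whether the numbers mark pairs was not tested. Of the 6 libraries, 5 correlated best with their own number, and male replicate 2 correlated better with female replicate 1 (0.131). The block raised the calls over all genes from 8 to 428 and left 0 members called, with 3 members at an unadjusted p under 0.05.

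The median log2 fold change lay between -0.11 and 0.13 for nuclear genes and between -0.21 and 0.092 for mitochondrial genes when 1 library was left out, and the sex difference in the mitochondrial share lay between -1.25 and 0.403 percentage points. Of 378 values of named genes under the other settings, 373 kept their direction and 5 changed it, all near 0: Cox4i1 became 0.0034 with mitochondrial genes and 0.0037 with genes over 1% of counts left out of the scaling, Cox6a1 became -0.0087 with total counts and -0.0051 without a filter, and Cox6a2 became -0.00056 with the replicate block. The cause was not tested.

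With 1 library left out, 27 of 42 named genes changed sign at least once. Log2 fold changes then ranged as follows: Atp5f1e -0.088 to 0.32, Cox4i1 -0.28 to 0.12, Cox4i2 -0.52 to 0.16, Cox6a1 -0.11 to 0.076, Cox6a2 -0.22 to 0.14, Cox6b1 -0.090 to 0.20, Cox6b2 -0.043 to 0.088, Cox8a -0.14 to 0.070, Cycs -0.041 to 0.19, Ndufa4 -0.044 to 0.25, Ndufa4l2 -0.62 to 0.018, Ndufab1 -0.13 to 0.12, Sdhb -0.095 to 0.13, Sdhd -0.11 to 0.10, Uqcr10 -0.18 to 0.17, Uqcr11 -0.11 to 0.14, mt-Atp6 -0.23 to 0.10, mt-Co1 -0.20 to 0.092, mt-Co2 -0.16 to 0.15, mt-Co3 -0.21 to 0.14, mt-Nd1 -0.19 to 0.10, mt-Nd2 -0.22 to 0.065, mt-Nd3 -0.25 to 0.11, mt-Nd4 -0.30 to 0.0088, mt-Nd4l -0.28 to 0.048, mt-Nd5 -0.13 to 0.19 and mt-Nd6 -0.21 to 0.066. Among those that kept their sign, values moved by over 1.5 times in Atp5mc2 (-0.30 to -0.14), Atp5mg (0.078 to 0.37), Atp5mj (0.11 to 0.36), Atp5mk (0.17 to 0.50), Cox7a2 (0.031 to 0.35), Cox7b (0.066 to 0.35), Cyc1 (-0.23 to -0.078), Ndufc1 (0.060 to 0.38), Ndufv1 (-0.27 to -0.12), mt-Atp8 (-0.39 to -0.061) and mt-Cytb (-0.30 to -0.0083). For the 6 of these above 0, the lowest value was that without male replicate 3 and the highest that without male replicate 1. The log2 ratios ranged from -0.73 to -0.091 for Ndufa4l2 to Ndufa4, -0.40 to 0.027 for Cox4i2 to Cox4i1, -0.27 to 0.21 for Cox6a2 to Cox6a1 and -0.24 to 0.16 for Cox6b2 to Cox6b1. The 95% interval lay within ± 0.5 for 1 of 13 mitochondrial mRNAs, mt-Nd6, and within ± 1 for all 13. The isoform Cox8b, at 10 counts, is limited by depth.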
